A study of Mus musculus with 32 samples.

Results

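The 34 genes described here mark monocytes and macrophages, or are switched on in them, and were followed in bone and gingiva of mice with experimental periodontitis, with an overloaded tooth, or with both. They were taken as a fixed list of symbols (Csf1r, Cd68, Adgre1, C1qa, C1qb, C1qc, Mrc1, Cd163, Marco, Msr1, Fcgr1, Fcgr3, Fcgr4, Mertk, Axl, Timd4, Vsig4, Lyve1, Folr2, Trem2, Tyrobp, Apoe, Gpnmb, Spi1, Ly6c2, Plac8, Arg1, Nos2, Cd14, Cx3cr1, Lyz2, Ms4a7, Cd5l and Spic), each matching 1 of the 55359 gene identifiers in the count tables. All 34 passed the filter on low counts in bone, and 33 passed it in gingiva, where Cd5l did not. All animals were wild-type male C57BL/6J mice aged 9 weeks at treatment. Control mice (Co) had no intervention. The ligature group (Li) had a silk thread tied around the second left upper molar, which lets plaque gather and the gum inflame. The trauma group (Tra) had that tooth overloaded by a layer of composite resin on its biting surface, and the LiTra group had both. Each treatment had 4 libraries in each tissue, 32 in all, and the time from treatment to sampling is not given in the sources used here.

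Monocytes leave the bone marrow, enter tissues from the blood and can become macrophages, while other macrophages live in a tissue for long periods. CSF1 acting on its receptor Csf1r keeps both alive, and the transcription factor PU.1, the product of Spi1, switches on many of their genes. Macrophages take up microbes and dying cells through scavenger, lectin, complement and Fc receptors. Osteoclasts, the cells that resorb bone, arise from the same precursors and share Csf1r, Cd68 and Gpnmb with macrophages. In bulk tissue a lower value can come from fewer cells of a type or from less RNA per cell, and these cannot be told apart.

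Library totals were 38163979 to 70793037 estimated counts in bone and 36913075 to 50740393 in gingiva. Values are CPM, the estimated counts set relative to the library total, on library sizes scaled by TMM, a method that sets the bulk of genes equal between libraries, and the values of a group are printed in the order of replicates 1 to 4. The summed level of 5 bone genes (Bglap, Col1a1, Ibsp, Dmp1 and Sost) was 5810 to 19444 CPM in bone Co and 932 to 2153 CPM in gingiva Co, and that of 5 keratin and cornification genes was 63777 to 78300.0 CPM in gingiva Co and 14.4 to 4633 CPM in bone Co. Genes of nasal glands took 49.4% of the counts of bone LiTra 1, 46.4% of Co 3, 23.9% of Li 2, 14.6% of Co 4 and 14.4% of Tra 3, and up to 6.80% of the other bone libraries. The 10 genes with the most counts, taken in each library separately, held 51.1% to 62.9% of the counts of bone LiTra 1, Co 3 and Tra 3, against 7.78% to 29.3% in the other bone libraries. Without these 3 libraries, a choice made after seeing the data, 5 members were called in bone for Li against Co and 10 for LiTra against Co, against 5 and 11 with them. Gingiva Li 1 held marrow transcripts (Elane at 44.2, Mpo at 47.7 and Ngp at 216 CPM) that were at 0 to 19.3 CPM in every other gingival library. Gingiva Tra 2 was the highest of its group for 27 of the 34 members, and its summed osteoclast markers were 460.2 CPM against 103 to 149 in the rest of Tra.

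A gene is said to be called, or to have risen or fallen, where its edgeR quasi-likelihood test gave an adjusted p under 0.05. DESeq2 and limma-voom were run beside it, and their counts or the genes they add or leave out are given where they differ from edgeR. The shares of all genes called are those of edgeR. Counts by the other tools have no such share beside them, so a larger count may reflect a tool that calls more genes. In untreated mice most members were more abundant in bone, which holds marrow, than in gingiva. Of the 34, 27 were higher in bone and 2 lower (edgeR, adjusted p under 0.05), in a contrast in which 53.6% of all 22559 genes were called, 27.2% higher and 26.4% lower in bone. DESeq2 also called Axl and Vsig4 higher in bone, and limma-voom Axl. The marrow monocyte gene Ly6c2 was at 158, 241, 162 and 187 CPM in bone Co and 0.704, 1.89, 2.97 and 2.49 in gingiva Co, a log2 difference of 6.52 ± 0.87 (adjusted p = 5.63e-07). Lyz2, lysozyme of granulocytes and macrophages, was at 1898, 2134, 1664 and 1776 CPM against 94.8, 123, 122 and 94.1, and Spi1 was at 103, 137, 76.3 and 116 against 3.89, 13.2, 9.28 and 8.704. None of these 3 genes overlapped between the tissues. The log2 differences of Lyz2 and Spi1 were 4.1 ± 0.42 and 3.62 ± 0.45, those of Plac8 and Spic 4.12 ± 0.67 and 4.72 ± 0.71. The C1q chains, Adgre1 and Mrc1 differed less, by 1.36 to 1.59. The 2 members lower in bone were Arg1, at 62.9, 0.370, 3.33 and 0.525 CPM in bone and 611, 452, 833 and 749.6 in gingiva, and Lyve1, a hyaluronan receptor of some macrophages that lymphatic vessels also carry, with a difference of -1.26 ± 0.37 (adjusted p = 0.00516). Marco, a scavenger receptor, had 0 counts in all 4 gingival Co libraries, and Cd5l, a protein secreted by macrophages, had 4 counts, all in 1 library. No fold is given for these 2.

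Per kilobase of exon, Lyz2 was the most abundant member in bone Co at 1419 ± 153 CPM per kb (SD, n = 4), followed by Apoe at 277 ± 30.0 and Tyrobp at 201 ± 17.8. C1qa at 68.3 ± 12.97, Ly6c2 at 68.2 ± 13.9 and Plac8 at 63.7 ± 16.5 came next and did not differ beyond their spread. In gingiva Co the order was Arg1 at 297 ± 75.0, Apoe at 159 ± 13.1, Lyz2 at 82.4 ± 12.3, C1qa at 26.4 ± 2.8 and Tyrobp at 25.9 ± 6.88, the last pair within their spread. Marco, Nos2 and Vsig4 were the lowest in bone and Marco, Cd5l and Spic in gingiva. Arg1, an enzyme that splits arginine, marks alternatively activated macrophages and is also made by keratinocytes. Its bone level varied widely within groups. Arg1 was at 62.9 CPM in Co 1, 255 in Li 3, 162 in LiTra 2, 19.3 in Tra 4 and 12.5 in LiTra 4, where gingival epithelium genes summed to 4633, 2719, 1025, 1077 and 766 CPM. This list leaves out LiTra 1 and LiTra 3, which held more Arg1 than Tra 4 and LiTra 4. Over bone LiTra the epithelium genes summed to 430 to 1025 CPM. Among the libraries listed, the order of Arg1 was not that of the sums, and the part of epithelium in the level was not tested.

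Several of the receptor genes have a short sequence, also the core of the motif that PU.1 recognises, just before their start of transcription. They are shown because Spi1, the gene of PU.1, was itself measured. Of the 34 members 24 had an entry in the RefSeq promoter table (GRCm38.p6, an older build than that of the counts, 250 bases before to 50 after each start). The members without one are Csf1r, Arg1, Tyrobp, Cd14, Lyve1, Spi1, Nos2, Msr1, C1qa and Adgre1. The letters GAGGAA, or TTCCTC on the other strand, were found in 16 of the 24 (66.7%) and in 8446 of 27025 genes in the table (31.3%). Over the same window the longer form GAGGAAGT, which contains the core, was in 3 of the 24 (12.5%) and in 997 of all genes (3.69%). Within the 60 bases before the start, a window chosen after the matches were seen, the core on either strand was found in 9 of the 24 (37.5%) and in 1896 of all genes (7.02%). The 60 bases before the start follow for the 7 of these 9 genes that were called higher in gingiva LiTra, 5′ to 3′ on the gene's strand, with the motif in capitals.
C1qb (chr4:136886201-136886260, minus strand): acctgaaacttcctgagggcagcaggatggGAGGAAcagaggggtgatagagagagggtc
Fcgr1 (chr3:96293970-96294029, minus strand): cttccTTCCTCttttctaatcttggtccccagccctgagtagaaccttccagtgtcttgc
Fcgr3 (chr1:171059404-171059463, minus strand): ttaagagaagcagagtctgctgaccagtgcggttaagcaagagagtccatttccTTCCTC
Fcgr4 (chr1:171018866-171018925, plus strand): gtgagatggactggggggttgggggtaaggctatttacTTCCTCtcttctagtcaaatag
Mrc1 (chr2:14229354-14229413, plus strand): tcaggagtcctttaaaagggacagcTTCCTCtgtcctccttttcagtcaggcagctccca
Trem2 (chr17:48346341-48346400, plus strand): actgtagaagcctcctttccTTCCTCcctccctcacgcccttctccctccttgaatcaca
Plac8 (chr5:100572206-100572265, minus strand): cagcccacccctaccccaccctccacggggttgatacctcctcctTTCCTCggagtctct
The capitals begin between 55 bases (Fcgr1) and 6 bases (Fcgr3) before the start, and read TTCCTC in 6 of the 7. Fcgr3 has another RefSeq start, not printed, with the same motif beginning 15 bases before it. The other two genes with the motif in this window are Ly6c2 and Vsig4. In bone none of the 9 was called for LiTra against Co (0 of 9 by edgeR), and in gingiva 7 of the 9 were, all higher, against 5 of the 14 tested members without the motif there. Of the 15 such members in bone, 3 were higher and 4 lower. The members without a promoter entry fall in neither set. In gingiva all of them but Lyve1 were called higher in LiTra, and in bone Csf1r, Msr1, Nos2 and Cd14 were. Of all genes tested 22.9% were called in that comparison in gingiva and 16.9% in bone. With a window chosen after the matches were seen these counts are a description, and the difference between members with and without the motif was not tested. A match is a stretch of letters, and PU.1 binding was not measured.

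**Figure D1:**
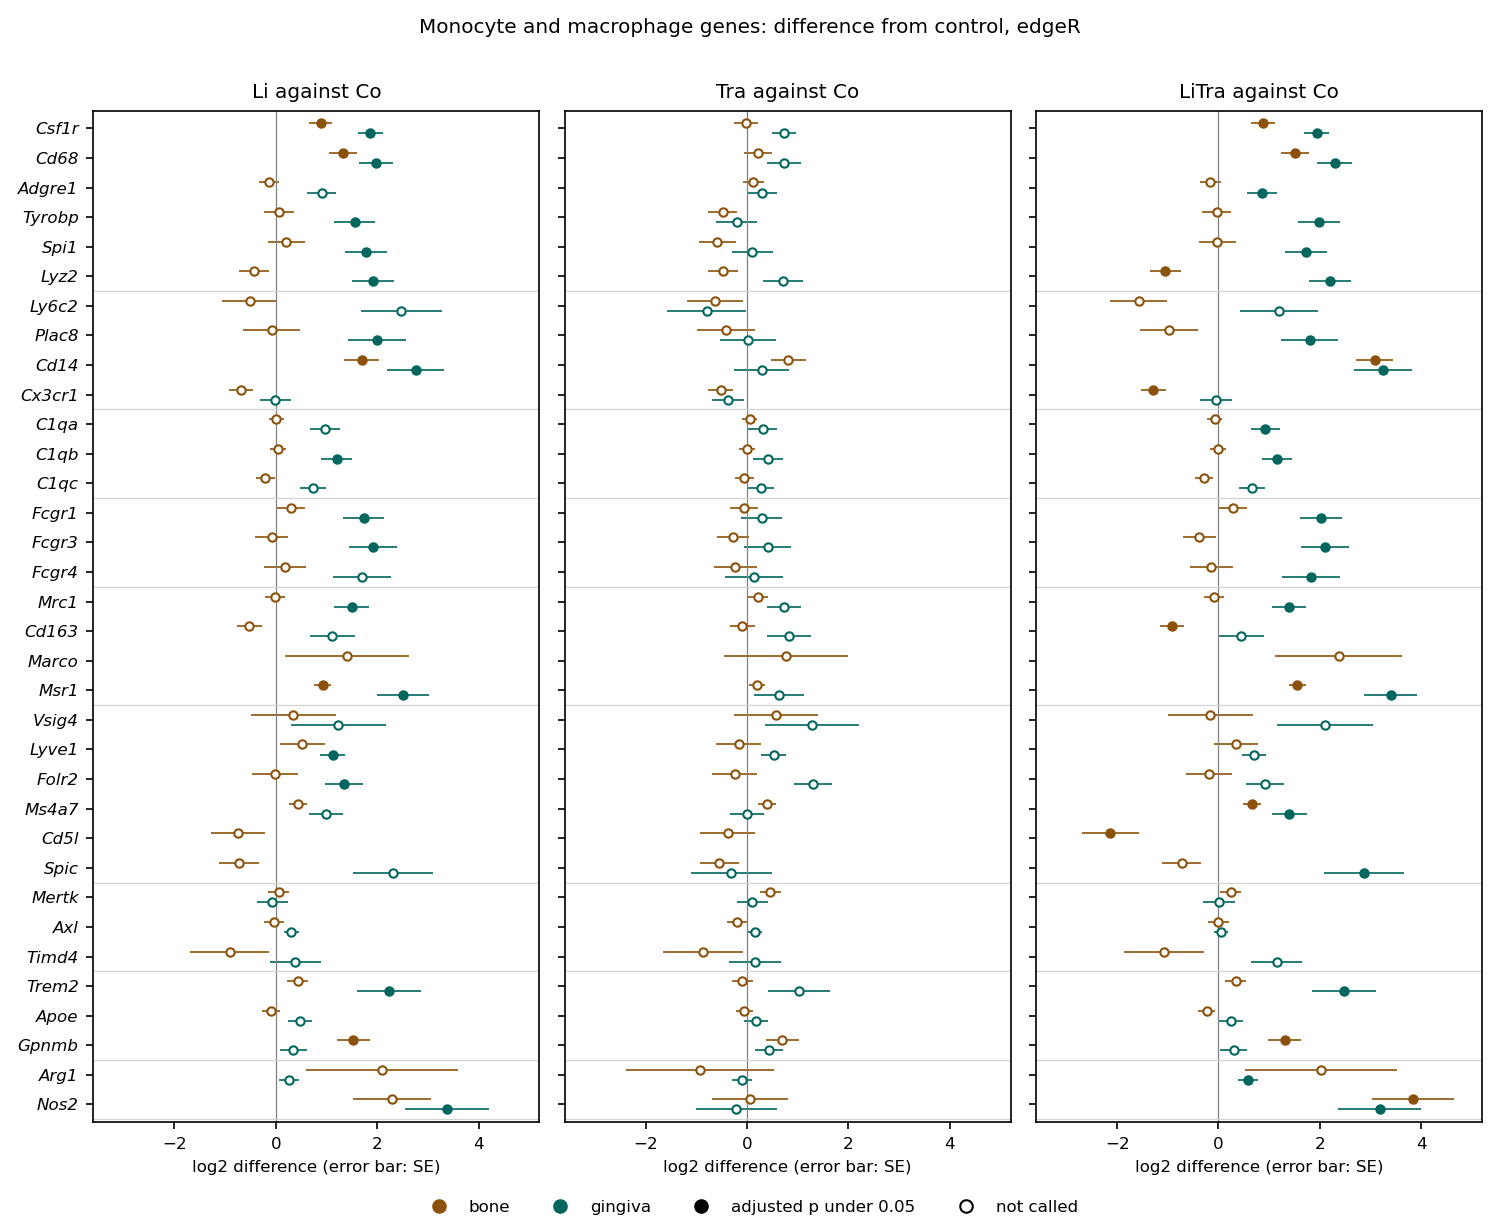
Log2 difference from Co (x axis, error bar SE) for each gene (y axis, grouped by role) in bone (brown) and gingiva (green), for Li, Tra and LiTra with 4 libraries per group; filled points have an edgeR adjusted p under 0.05. Filled points are absent for Tra, are 5 and 11 in bone for Li and LiTra, and 16 and 20 in gingiva, where Marco (0 counts in Co) is left out and Cd5l was not tested.

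In bone the ligature raised a small set of genes that macrophages share with osteoclasts or use to sense and take up bacteria. Cd68, Gpnmb, Csf1r, Cd14 and Msr1 were higher in Li than in Co, 5 of 34, and 0 were lower. In this comparison 3.51% of the 21205 genes tested were called, 2.66% higher and 0.849% lower. The median log2 difference of the members was 0.05 against -0.02 over all genes. With both treatments (LiTra against Co) 7 of 34 were higher and 4 lower, where 16.9% of all genes were called, 8.29% higher and 8.64% lower, and the medians were -0.06 and -0.01. The rise included Nos2 and Ms4a7, a membrane protein of macrophages, and the fall Cd5l, Cx3cr1, Lyz2 and Cd163. Both comparisons use the same Co libraries.

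Among the lineage genes in bone, Csf1r, the CSF1 receptor, was at 194, 293, 165 and 227 CPM in Co, 464, 341, 365 and 451 in Li, 219, 277, 136 and 234 in Tra and 281, 419.8, 475 and 442 in LiTra. Every Li library was above every Co library, while LiTra 1 lay below the highest Co library. The log2 difference was 0.88 ± 0.23 (adjusted p = 0.0499) for Li and 0.88 ± 0.23 (adjusted p = 0.0177) for LiTra, and the first was lost in 13 of the 16 fits that left out 1 library, with adjusted p up to 0.144. Cd68, a lysosomal membrane protein of phagocytes, was at 63.5, 91.7, 43.5 and 66.03 CPM in Co, 199, 137, 146 and 183 in Li, 87.3, 102, 39.1 and 77.7 in Tra and 136, 206, 218 and 194 in LiTra. Every Li and LiTra library exceeded Co, and the differences were 1.33 ± 0.28 (adjusted p = 0.0181) and 1.51 ± 0.28 (adjusted p = 0.00216).

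Adgre1, the gene of the classical mouse macrophage antigen, was at 39.6, 30.9, 22.99 and 33.8 CPM in Co, 25.7, 27.7, 29.97 and 32.8 in Li, 34.1, 33.99, 24.3 and 46.05 in Tra and 21.9, 25.3, 29.2 and 37.2 in LiTra. All groups overlapped, with differences of -0.13 ± 0.21 for Li and -0.16 ± 0.21 for LiTra, neither called. Tyrobp, the signalling adaptor of Trem2 and related receptors, was at 139, 145, 117 and 134 CPM in Co, 180.5, 165, 119 and 95.3 in Li, 129, 108, 38.7 and 109 in Tra and 103, 129, 149.6 and 141 in LiTra, and its groups overlapped too, Tra 3 being the lowest library. Spi1 was at 103, 137, 76.3 and 116 CPM in Co, 174, 140.5, 97.03 and 87.2 in Li, 90.8, 85.6, 21.2 and 89.9 in Tra and 81.5, 97.8, 126 and 122 in LiTra, with the same low library and no call. Lyz2 was at 1898, 2134, 1664 and 1776 CPM in Co, 1878, 1559.7, 1239 and 849 in Li, 1716, 1354, 706 and 1587 in Tra and 589, 784, 1103 and 1142 in LiTra. Every LiTra library was below every Co library, a difference of -1.05 ± 0.30 (adjusted p = 0.028), and that of Li was -0.44 ± 0.30 and not called. Reads of Lyz2 can be shared with its near copy Lyz1, which differed by -1.21 ± 0.31 in the same comparison (adjusted p = 0.0158).

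The monocyte genes parted in bone. Cd14, the co-receptor for bacterial lipopolysaccharide, was at 7.32, 7.59, 8.92 and 6.97 CPM in Co, 30.5, 22.2, 27.01 and 19.9 in Li, 14.3, 8.81, 20.1 and 11.2 in Tra and 93.01, 91.5, 25.3 and 50.8 in LiTra. No Li or LiTra library overlapped Co, and LiTra 1 and 2 were the highest of all bone libraries, with differences of 1.7 ± 0.35 (adjusted p = 0.0173) and 3.08 ± 0.37 (adjusted p = 0.000296). Cx3cr1, the fractalkine receptor of patrolling monocytes and tissue macrophages, was at 21.4, 24.5, 22.2 and 30.8 CPM in Co, 16.3, 12.7, 19.1 and 13.4 in Li, 17.8, 12.3, 12.99 and 25.7 in Tra and 7.63, 8.86, 10.2 and 13.7 in LiTra. Li and LiTra lay wholly below Co. The LiTra difference was -1.29 ± 0.25 (adjusted p = 0.00278), while the Li difference of -0.68 ± 0.24 was not called by edgeR and was by DESeq2 (adjusted p = 0.0459). Ly6c2, a surface antigen of classical monocytes, was at 158, 241, 162 and 187 CPM in Co, 229, 165, 80.3 and 48.2 in Li, 181, 137, 25.8 and 139 in Tra and 31.9, 40.4, 96.1 and 83.02 in LiTra. Every LiTra library was under every Co library, but the difference of -1.57 ± 0.56 (adjusted p = 0.0683) was not called by edgeR. DESeq2 and limma-voom both called it, at -1.58 each (adjusted p = 0.0133 and 0.00992), and its near copy Ly6c1 differed by 0.48 ± 0.18 (adjusted p = 0.0759). Plac8, expressed in marrow monocytes and granulocytes, was at 88.7, 138, 77.2 and 102 CPM in Co, 167, 137, 53.5 and 26.5 in Li, 111, 93.2, 15.1 and 83.6 in Tra and 40.1, 30.1, 64.9 and 70.2 in LiTra. LiTra lay below Co and Li spread across it, and the LiTra difference of -0.98 ± 0.57 was not called.

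The genes of complement C1q and of the Fc receptors did not pass the test in bone. C1qa, a chain of the first complement component, was at 74.5, 65.3, 56.5 and 88.02 CPM in Co, 67.4, 66.7, 71.3 and 80.6 in Li, 66.6, 74.02, 67.96 and 86.2 in Tra and 56.6, 61.3, 66.4 and 85.2 in LiTra. The groups overlapped throughout, and the differences of the 3 chains C1qa, C1qb and C1qc ran from -0.28 to 0.05 in Li and LiTra. Fcgr3, an activating Fc receptor, was at 61.4, 77.97, 64.8 and 62.6 CPM in Co, 96.9, 77.4, 42.3 and 35.02 in Li, 71.7, 57.7, 25.2 and 64.8 in Tra and 49.3, 42.7, 48.7 and 65.2 in LiTra, with Tra 3 and Li 4 the lowest libraries, and Fcgr1, Fcgr3 and Fcgr4 differed by -0.37 to 0.30. Mrc1, the mannose receptor, was at 75.3, 65.3, 67.9 and 75.4 CPM in Co, 50.7, 71.9, 68.4 and 91.1 in Li, 65.5, 80.9, 70.02 and 113 in Tra and 53.4, 54.97, 73.9 and 83.7 in LiTra, again with overlap in every group and differences of -0.01 ± 0.20 and -0.09 ± 0.20.

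Msr1, a scavenger receptor for modified lipoproteins and bacteria, was the member with the smallest p in bone and was at 9.94, 8.22, 7.85 and 8.22 CPM in Co, 19.7, 17.1, 14.6 and 13.6 in Li, 10.7, 10.5, 7.02 and 11.1 in Tra and 26.98, 27.6, 20.7 and 25.1 in LiTra. The Li libraries lay above Co and the LiTra libraries above both, with differences of 0.92 ± 0.16 (adjusted p = 0.00826) and 1.55 ± 0.17 (adjusted p = 0.000159), kept in each of the 16 fits without 1 library. Cd163, the receptor that clears haemoglobin bound to haptoglobin, fell by 0.92 on the log2 scale in LiTra (adjusted p = 0.0197), and differed by -0.52 ± 0.24 in Li without a call. Marco was at 0 to 1.69 CPM in bone and was not called.

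Of the resident macrophage genes in bone, Cd5l was at 8.84, 7.12, 6.81 and 18.4 CPM in Co, 7.899, 1.45, 11.6 and 3.54 in Li, 6.61, 10.2, 3.26 and 11.4 in Tra and 1.89, 2.34, 2.89 and 2.24 in LiTra. All LiTra libraries were below all Co libraries, a difference of -2.13 ± 0.56 (adjusted p = 0.0182). Spic, a transcription factor of macrophages that recycle red cells, was at 8.27, 5.35, 4.81 and 7.26 CPM in Co, 5.44, 2.27, 4.69 and 3.105 in Li, 3.18, 4.297, 1.79 and 8.27 in Tra and 3.41, 3.86, 3.54 and 4.701 in LiTra. LiTra lay below Co, but the differences of -0.73 ± 0.39 and -0.73 ± 0.39 were not called. Ms4a7 rose by 0.67 ± 0.18 (adjusted p = 0.0194) in LiTra. Folr2, Lyve1 and Vsig4 were not called, and neither were Mertk, Axl and Timd4, receptors for dying cells, whose differences ran from -1.07 to 0.25 in Li and LiTra.

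Gpnmb, a glycoprotein of lipid-laden macrophages and osteoclasts, was at 20.6, 18.7, 7.22 and 25.1 CPM in Co, 55.8, 34.9, 54.0 and 62.1 in Li, 21.2, 33.4, 21.4 and 40.2 in Tra and 35.9, 52.8, 50.6 and 38.4 in LiTra. Both ligature groups exceeded Co, by 1.53 ± 0.33 (adjusted p = 0.0206) and 1.31 ± 0.32 (adjusted p = 0.0133). Trem2, a lipid receptor that signals through Tyrobp, was at 7.78, 9.97, 7.63 and 10.9 CPM in Co, 11.7, 14.2, 11.96 and 11.1 in Li, 8.996, 6.69, 8.35 and 9.83 in Tra and 7.63, 10.6, 11.3 and 16.3 in LiTra, where LiTra 1 was at a Co level, and its differences of 0.43 ± 0.21 and 0.34 ± 0.21 were not called. Apoe, a lipid carrier, was at 523 to 664 CPM in Co and 368 to 660 CPM in LiTra and was not called. Nos2, inducible nitric oxide synthase, was at 0.391, 0.324, 0.481 and 0.571 CPM in Co, 2.86, 1.75, 1.95 and 2.096 in Li, 0.312, 0.0635, 1.01 and 0.483 in Tra and 3.68, 15.3, 0.799 and 5.51 in LiTra. Its difference was 3.84 ± 0.81 (adjusted p = 0.00528) for LiTra, spread over a wide range of libraries, and 2.29 ± 0.76 (adjusted p = 0.118) for Li, which edgeR did not call although Li lay wholly above Co. For LiTra limma-voom did not call it, and for Li DESeq2 did (adjusted p = 0.0203). Arg1 was at 62.9, 0.370, 3.33 and 0.525 CPM in Co, 6.07, 11.2, 255 and 14.1 in Li, 2.98, 4.76, 8.12 and 19.3 in Tra and 53.4, 162, 47.02 and 12.5 in LiTra and was not called.

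The bone calls moved with single libraries and with the scaling. For Li against Co 2 to 5 members were called when 1 library was left out, 2 without Co 1, Co 4, Li 1 or Li 4. Msr1 was called in all 16 such fits, Cd68 lost its call without those 4 libraries (adjusted p up to 0.0745), Gpnmb without Li 1 or Li 4 (up to 0.0609) and Cd14 without Co 1 or Co 4 (up to 0.0762). For LiTra against Co it was 7 to 12, 7 without Co 4 or LiTra 2. Cd68, Msr1, Gpnmb, Nos2, Cd14 and Cx3cr1 were called in each of these fits. The calls lost were Csf1r without Co 1 or LiTra 3 (adjusted p up to 0.0539), Cd163 without Co 4, LiTra 1 or LiTra 2 (0.0687), Lyz2 without Co 1, Co 2, Co 4, LiTra 1 or LiTra 2 (0.0858), Ms4a7 without Co 4, LiTra 2 or LiTra 4 (0.0596) and Cd5l without Co 4 or LiTra 2 (0.0695). With library totals in place of TMM 0 members were called for Li and 1, Cd14, for LiTra.

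**Figure D2:**
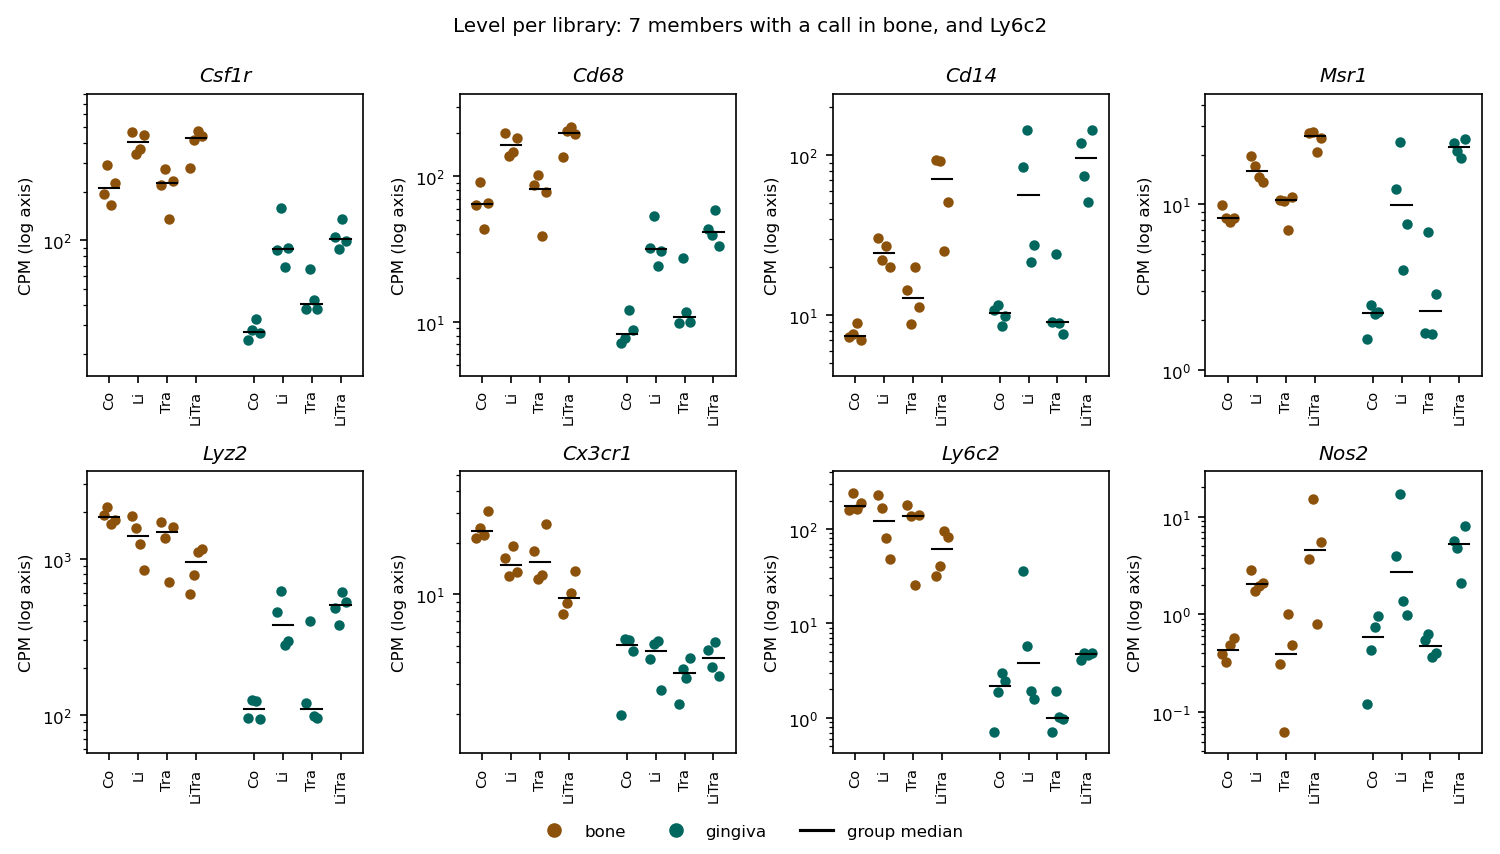
CPM (log axis) of 8 genes in each library, by treatment, in bone (brown) and gingiva (green); black lines are group medians of 4 libraries. Csf1r, Cd68, Cd14 and Msr1 are high in Li and LiTra of both tissues, whereas Lyz2 falls in bone LiTra and rises in gingiva.

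Resin alone gave no call in bone. Against Co, 0 of 34 members passed by edgeR, DESeq2 or limma-voom, as did 0% of all genes by edgeR, and 5 members had an unadjusted p under 0.05 (Mertk, Gpnmb, Cd14, Cx3cr1 and Ms4a7), as had 2023 of 21205 genes. The lowest adjusted p of a member was 0.493, and the median log2 difference was -0.08. Adding resin to the ligature (LiTra against Li) also gave 0 of 34 by edgeR and limma-voom and 0% of all genes by edgeR. An unadjusted p under 0.05 was found for 4 members (Msr1, Cd14, Cx3cr1 and Cd5l) and for 1352 of 21205 genes. DESeq2 called 2 of these members, Cd14 at 1.41 (adjusted p = 0.024) and Msr1 at 0.64 (adjusted p = 0.0263). The edgeR estimates were 1.39 ± 0.34 (adjusted p = 0.557) for Cd14 and 0.63 ± 0.16 (adjusted p = 0.557) for Msr1. Adding the ligature to resin (LiTra against Tra) raised 5 of 34, namely Nos2 by 3.79 ± 0.81, Cd14 by 2.27 ± 0.35, Msr1 by 1.35 ± 0.16, Cd68 by 1.3 ± 0.28 and Csf1r by 0.90 ± 0.23, and lowered 0 by edgeR, where 5.56% of all genes were called, 3.07% higher and 2.49% lower. DESeq2 called 8, adding Cd163 at -0.82, Cx3cr1 at -0.77 and Cd5l at -1.75 (adjusted p = 0.0123, 0.0198 and 0.0126), and limma-voom called 6, adding Cd163 and Cd5l as lower and leaving out Nos2. The edgeR count was 3 without LiTra 2, 2 in a fit of these groups alone and 1 with library totals. The interaction, which asks whether the ligature effect differed with and without resin, was called for 0 of 34 members by all 3 tools and for 0% of genes by edgeR. An unadjusted p under 0.05 was found for 0 members and for 644 of 21205 genes.

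In gingiva the response was wider and went one way. Li raised 16 of the 33 members tested and lowered 0, in a comparison with 7.49% of 20143 genes called, 5.19% higher and 2.3% lower. The median difference of the members was 1.5 against 0.00 over all genes. LiTra raised 21 and lowered 0, where 22.9% of genes were called, 11.4% higher and 11.5% lower, with medians of 1.4 and -0.01. Each role held genes that rose except the receptors for dying cells. These medians stayed at 1.5 and 1.4 with Marco, which had 0 counts in Co, set to its lower bound.

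All 6 lineage genes rose in gingiva LiTra. Csf1r was at 24.4, 27.8, 32.7 and 26.8 CPM in Co, 87.03, 159.6, 68.9 and 90.1 in Li, 37.5, 66.8, 43.1 and 37.8 in Tra and 105, 88.2, 136 and 99.5 in LiTra. Li, Tra and LiTra lay wholly above Co, Li and LiTra also above Tra, and the differences were 1.86 ± 0.25 (adjusted p = 0.00148) for Li and 1.94 ± 0.25 (adjusted p = 0.000286) for LiTra, with 0.73 ± 0.24 for Tra not called. Cd68 was at 7.09, 7.67, 12.03 and 8.81 CPM in Co, 32.4, 53.5, 24.1 and 30.6 in Li, 9.87, 27.4, 11.7 and 9.96 in Tra and 43.4, 39.5, 58.8 and 33.3 in LiTra. Both ligature groups again exceeded Co, by 1.98 ± 0.34 (adjusted p = 0.00496) and 2.3 ± 0.34 (adjusted p = 0.000697), and Tra 2 stood above the rest of Tra.

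Adgre1 was at 11.7, 13.9, 13.4 and 10.4 CPM in Co, 14.5, 32.6, 21.4 and 24.1 in Li, 14.5, 24.8, 10.9 and 10.2 in Tra and 16.4, 23.3, 31.6 and 18.8 in LiTra. Li and LiTra lay above Co, but the difference passed the test in LiTra, at 0.86 ± 0.29 (adjusted p = 0.0441), and by edgeR not in Li, at 0.91 ± 0.29 (adjusted p = 0.0718). The LiTra call was lost in 10 of the 16 fits without 1 library. Tyrobp was at 12.4, 22.6, 19.5 and 14.7 CPM in Co, 70.4, 81.7, 27.04 and 24.3 in Li, 12.6, 27.1, 7.97 and 12.3 in Tra and 82.5, 58.7, 63.4 and 69.2 in LiTra. Its differences were 1.56 ± 0.41 (adjusted p = 0.0318) and 1.98 ± 0.41 (adjusted p = 0.00393), with Li 3 and Li 4 close to Co. Spi1 was at 3.89, 13.2, 9.28 and 8.704 CPM in Co, 37.3, 51.5, 16.6 and 15.2 in Li, 6.72, 14.95, 6.19 and 9.87 in Tra and 29.01, 26.2, 32.8 and 27.6 in LiTra, above Co in every Li and LiTra library, by 1.78 ± 0.42 and 1.72 ± 0.41. Lyz2 was at 94.8, 123, 122 and 94.1 CPM in Co, 454, 619, 278 and 295 in Li, 118, 396, 98.3 and 94.8 in Tra and 484, 376, 614 and 528 in LiTra. It rose by 1.92 ± 0.41 and 2.21 ± 0.42 without overlap, and Lyz1 differed by 0.43 ± 0.63 in LiTra without a call.

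Cd14 rose most among the monocyte genes of gingiva, at 10.8, 11.6, 8.48 and 9.92 CPM in Co, 84.9, 143, 21.4 and 27.3 in Li, 9.04, 24.1, 8.97 and 7.63 in Tra and 119, 73.9, 51.1 and 143 in LiTra. Both ligature groups were above Co, with the highest libraries Li 2 and LiTra 4, and the differences were 2.76 ± 0.56 (adjusted p = 0.0105) and 3.24 ± 0.57 (adjusted p = 0.00174). Plac8 was at 4.44, 4.82, 6.14 and 7.88 CPM in Co, 32.9, 47.3, 6.39 and 6.27 in Li, 5.15, 6.87, 2.39 and 9.09 in Tra and 18.6, 15.7, 25.4 and 21.4 in LiTra. Its differences of 2.0 ± 0.57 (adjusted p = 0.0453) and 1.8 ± 0.57 (adjusted p = 0.0323) were called, but Li 3 and Li 4 lay within the Co range. Ly6c2 was at 0.704, 1.89, 2.97 and 2.49 CPM in Co, 35.7, 5.73, 1.93 and 1.58 in Li, 0.714, 1.92, 1.02 and 0.966 in Tra and 4.13, 4.85, 4.64 and 4.88 in LiTra. Li 1, the library with marrow transcripts, stood far above the rest, LiTra lay above Co, and neither difference was called by edgeR (2.48 ± 0.80 and 1.2 ± 0.77), the first being called by DESeq2 (adjusted p = 0.00697). The near copy Ly6c1 averaged 54.1 CPM in gingiva Co and 161 in LiTra. By edgeR it rose by 1.14 ± 0.20 in Li (adjusted p = 0.00496) and 1.57 ± 0.20 in LiTra (adjusted p = 0.000279). Sharing of reads between these copies was not tested. Without Li 1 the count for Li against Co was 11 of 33. Cx3cr1 was at 1.97, 5.51, 5.39 and 4.68 CPM in Co, 4.19, 5.12, 5.37 and 2.78 in Li, 2.29, 3.68, 3.23 and 4.26 in Tra and 4.71, 3.75, 5.23 and 3.32 in LiTra, all groups overlapped, and its differences were -0.01 ± 0.31 and -0.04 ± 0.31.

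Of the 6 complement and Fc receptor genes 5 rose in gingiva LiTra. C1qa was at 24.02, 31.1, 27.7 and 27.1 CPM in Co, 35.4, 95.5, 42.2 and 42.5 in Li, 29.01, 48.8, 29.9 and 28.6 in Tra and 42.3, 40.04, 71.97 and 53.95 in LiTra. There was no overlap of Li or LiTra with Co, and the difference was called for LiTra, at 0.92 ± 0.29 (adjusted p = 0.0313), and by edgeR not for Li, at 0.97 ± 0.29 (adjusted p = 0.0523). C1qb was called in both, at 1.2 ± 0.31 and 1.16 ± 0.31. C1qc, at 0.74 ± 0.25 and 0.66 ± 0.25, was called in neither by edgeR, in both by DESeq2 (adjusted p = 0.037 and 0.0385) and in LiTra by limma-voom (adjusted p = 0.0223). Fcgr3 was at 7.48, 11.7, 10.9 and 10.2 CPM in Co, 38.3, 77.6, 20.9 and 14.9 in Li, 11.7, 26.3, 7.49 and 7.89 in Tra and 51.6, 31.8, 41.8 and 48.8 in LiTra. Every Li and LiTra library exceeded Co, by 1.92 ± 0.47 and 2.11 ± 0.47. Fcgr1, the high-affinity receptor for IgG, was at 1.53, 1.73, 1.94 and 2.78 CPM in Co, 4.14, 13.8, 3.42 and 5.15 in Li, 2.29, 3.88, 1.54 and 2.002 in Tra and 6.49, 7.59, 9.68 and 8.57 in LiTra, and rose by 1.74 ± 0.41 and 2.02 ± 0.41 without overlap. Fcgr4 was called for LiTra, at 1.83 ± 0.58, and by edgeR not for Li, at 1.7 ± 0.57. C1qb, Fcgr1, Fcgr3 and Fcgr4 are among the promoters printed above.

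Mrc1 was at 22.8, 23.1, 30.5 and 17.2 CPM in Co, 37.02, 133, 45.4 and 49.4 in Li, 39.6, 52.3, 34.3 and 29.3 in Tra and 51.8, 54.3, 82.5 and 57.5 in LiTra. Li 2 stood above all other libraries, Li and LiTra lay wholly above Co, and the differences were 1.5 ± 0.34 (adjusted p = 0.0191) and 1.39 ± 0.34 (adjusted p = 0.0101). Msr1 was at 1.53, 2.47, 2.18 and 2.22 CPM in Co, 12.3, 23.9, 4.002 and 7.58 in Li, 1.67, 6.76, 1.65 and 2.85 in Tra and 23.6, 21.0, 19.1 and 25.1 in LiTra. LiTra was tight and far above Co, and the differences were 2.51 ± 0.51 (adjusted p = 0.0104) and 3.4 ± 0.53 (adjusted p = 0.000795). Marco had 0 counts in every Co and Tra library and was at 0.2497, 0.212, 0 and 0.0889 CPM in Li and 0.279, 0.621, 0.616 and 0.298 in LiTra. Against a floor of 3 counts over the group, LiTra was at least 24.7-fold higher than Co and at least 26.7-fold higher than Tra (adjusted p = 0.00821 and 0.00952), and Li at least 7.51-fold higher than Co but not called (adjusted p = 0.0556). Cd163 was not called, at 1.11 ± 0.44 and 0.45 ± 0.44.

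Among the resident macrophage genes of gingiva, Lyve1 differed by 1.12 ± 0.25 in Li and 0.70 ± 0.25 in LiTra, the first called by edgeR and the second by DESeq2 and limma-voom only (adjusted p = 0.0245 and 0.0236). Folr2 differed by 1.34 ± 0.38, called by edgeR, and 0.92 ± 0.38, called by no tool. Ms4a7 and Spic were called for LiTra, at 1.4 ± 0.34 and 2.87 ± 0.80, and for Li, at 0.98 ± 0.34 and 2.31 ± 0.79, by DESeq2 only (adjusted p = 0.0325 and 0.0201). In LiTra against Li none of these 4 was called by edgeR, DESeq2 or limma-voom. Spic was at 0.146, 0.264, 0.288 and 0.265 CPM in Co, 1.82, 2.23, 0.464 and 0.289 in Li, 0, 0.323, 0.347 and 0.0942 in Tra and 1.11, 1.26, 1.94 and 2.796 in LiTra, so its rise starts from under 1 CPM. Cd5l was at 2.47, 0.255, 0.0976 and 0.0889 CPM in Li, nearly all of it in Li 1, and at 0 in LiTra. Mertk and Axl, kinases that bind dying cells through bridging proteins, differed by -0.07 to 0.31 in Li and LiTra and were not called, and neither were Timd4 and Vsig4.

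Trem2 was at 0.923, 2.28, 2.13 and 1.51 CPM in Co, 4.52, 14.03, 5.69 and 7.95 in Li, 2.44, 9.18, 0.934 and 1.37 in Tra and 6.66, 8.74, 15.7 and 7.197 in LiTra. Li and LiTra lay above Co, and its differences of 2.23 ± 0.62 (adjusted p = 0.0419) and 2.48 ± 0.63 (adjusted p = 0.0115) stood beside 0.48 ± 0.24 and 0.25 ± 0.24 for Apoe and 0.34 ± 0.27 and 0.30 ± 0.27 for Gpnmb. Trem2 was called in both and Apoe and Gpnmb in neither. Nos2 was at 0.121, 0.431, 0.743 and 0.952 CPM in Co, 3.99, 17.1, 1.37 and 0.978 in Li, 0.542, 0.625, 0.369 and 0.4003 in Tra and 5.65, 4.81, 2.08 and 7.95 in LiTra. Its differences were 3.38 ± 0.82 (adjusted p = 0.0243) and 3.19 ± 0.82 (adjusted p = 0.0126), with every Li and LiTra library above Co and Li 4 just above it. Arg1 was at 611, 452, 833 and 749.6 CPM in Co, 667, 738, 730.2 and 1029 in Li, 629, 667, 576 and 589 in Tra and 1050.5, 838, 1338 and 745 in LiTra. The LiTra difference of 0.59 ± 0.20 (adjusted p = 0.0483) was called although the groups overlap, and was lost in 12 of the 16 fits without 1 library.

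The Li calls in gingiva leaned on a few libraries. With 1 library left out 5 to 20 members were called for Li against Co, 5 without Co 1 or Li 2, 7 without Co 3 and 8 without Co 4, and Csf1r, Cd68, Msr1 and Cd14 were called in each of the 16 fits. The other 12 were lost in 1 to 12 of them, the most for Folr2 and Plac8 (12 each, adjusted p up to 0.179 and 0.183) and Trem2 (10, up to 0.144), and all 12 but Mrc1 were lost without Li 2. Without Li 1, the library with marrow transcripts, Fcgr3, Folr2, Trem2, Tyrobp, Spi1 and Plac8 lost their calls. Limma-voom called 10, without Cd14, Fcgr3, Folr2, Nos2, Plac8 and Tyrobp, and a fit of Li and Co alone called 5, also without Cd14. DESeq2 called 23, adding Adgre1, C1qa, C1qc, Fcgr4, Ly6c2, Ms4a7 and Spic, all higher. For LiTra against Co DESeq2 called 23, adding C1qc and Lyve1, and limma-voom 22, adding the same pair and leaving out Arg1. With 1 library left out the range was 16 to 22, and 15 of the 21 genes were called in every such fit. Arg1 (12 fits) and Adgre1 (10 fits) were lost most often, then Fcgr4 and Plac8 (6 each, adjusted p up to 0.0887 and 0.0861), C1qa (5, up to 0.0991) and Spic (2, up to 0.0552), all 6 of them without Co 1.

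**Figure D3:**
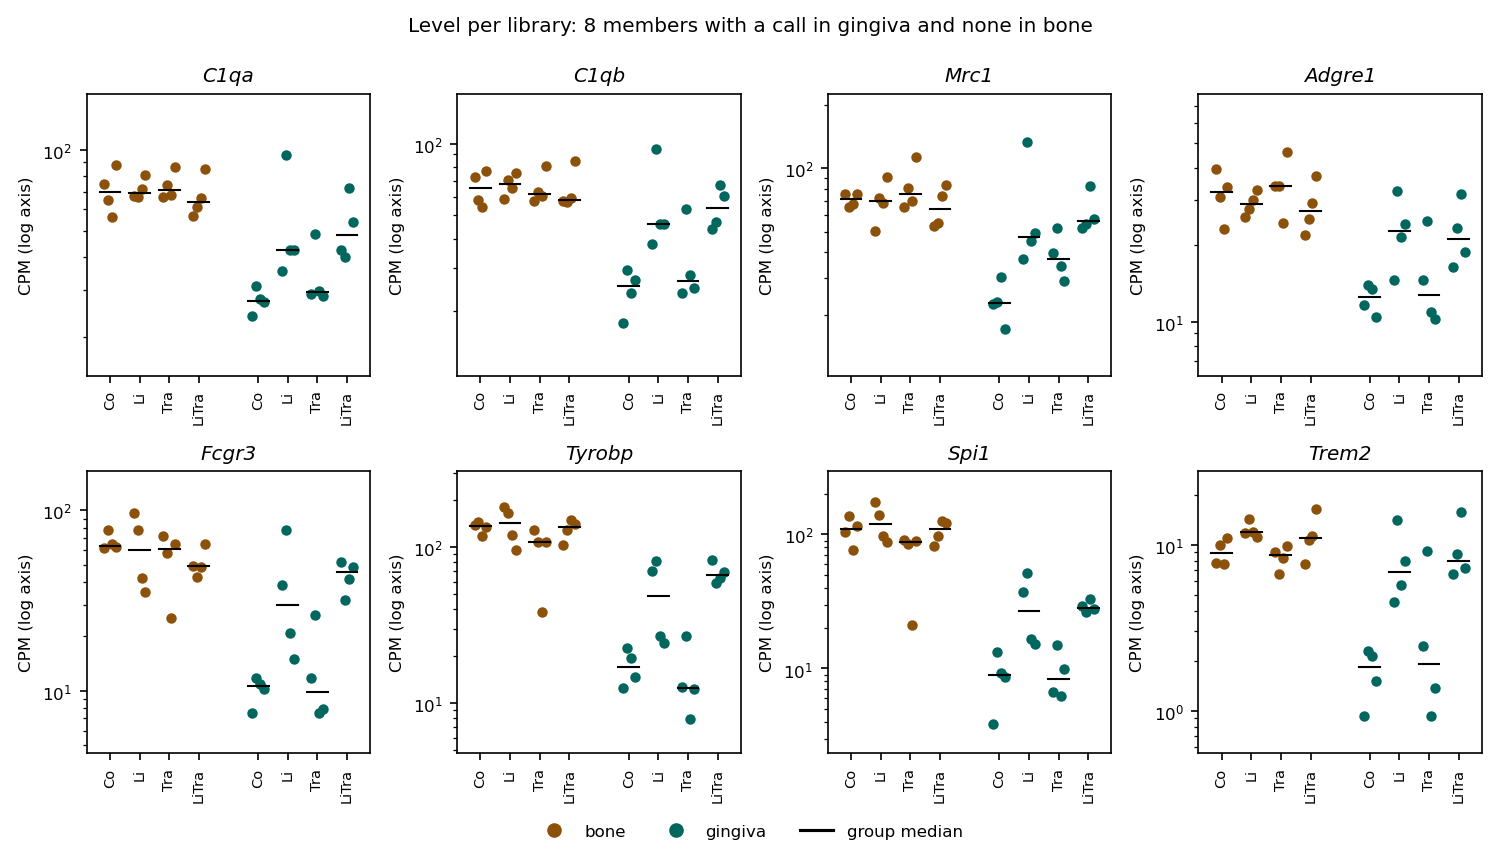
CPM (log axis) of 8 genes in each library, by treatment, in bone (brown) and gingiva (green); black lines are group medians of 4 libraries. All 8 were called in gingiva LiTra against Co and in no bone comparison, and gingiva Li 2 and Tra 2 stand above their groups for C1qa, C1qb and Fcgr3.

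Resin alone gave no call in gingiva either. By edgeR, DESeq2 and limma-voom 0 of 33 members were called for Tra against Co, with 0% of genes called by edgeR, 4 members at an unadjusted p under 0.05 (Csf1r, Cd68, Mrc1 and Folr2) and 1323 such genes of 20143. The median difference was 0.29, and the lowest adjusted p of a member was 0.465. LiTra against Li called 0 of 33 by edgeR and DESeq2, and 17 of all genes by edgeR (0.0844%, 0.0248% higher and 0.0596% lower). An unadjusted p under 0.05 was found for 0 members and for 3736 of 20143 genes. Limma-voom called Msr1 at 1.5 (adjusted p = 0.0384), where edgeR gave 0.89 ± 0.48 (adjusted p = 0.343). LiTra against Tra raised 15 of 33 and lowered 0, where 18.8% of genes were called, 9.36% higher and 9.44% lower, with a median of 1.21. Besides Marco, the largest rises were Nos2 at 3.4 ± 0.83, Spic at 3.18 ± 0.81, Cd14 at 2.96 ± 0.57, Msr1 at 2.77 ± 0.51 and Tyrobp at 2.19 ± 0.41. The count was 18 without Tra 2, and 18 by DESeq2 and by limma-voom. The interaction was called for 0 of 33 by all 3 tools and for 0% of genes by edgeR. An unadjusted p under 0.05 was found for 4 members (Cd163, Axl, Lyve1 and Folr2) and for 2289 of 20143 genes.

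The combined treatment was compared between the tissues directly. For LiTra against Co, 6 members were higher in both tissues (Csf1r, Cd68, Nos2, Cd14, Ms4a7 and Msr1), 85.7% of the 7 higher in bone and 28.6% of the 21 higher in gingiva, and Lyz2 was lower in bone and higher in gingiva. The change in bone minus the change in gingiva, fitted over all 32 libraries, was below 0 for 13 of 34 members and above 0 for 0 of 34 by edgeR, where 12.3% of 22559 genes were called, 6.68% below and 5.59% above 0. The members' median was -1.19 against 0.03 for all genes. The largest differences were Spic at -3.59 ± 0.89 (adjusted p = 0.00949), Lyz2 at -3.24 ± 0.54 (adjusted p = 0.000869), Plac8 at -2.77 ± 0.85, Fcgr3 at -2.47 ± 0.60, Trem2 at -2.13 ± 0.67, Tyrobp at -2.01 ± 0.53, Msr1 at -1.84 ± 0.54 and Spi1 at -1.73 ± 0.58, and the rest were Fcgr1, Mrc1, Cx3cr1, C1qb and Csf1r, at -1.71 to -1.05. For Csf1r and Msr1, higher in both tissues, the rise was smaller in bone. Cd14 differed by -0.14 ± 0.66 and Cd68 by -0.78 ± 0.45, neither called.

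For the ligature alone the same contrast called 1 member, Lyz2 at -2.35 ± 0.53 (adjusted p = 0.021), where 2.04% of genes were called, 0.683% below and 1.36% above 0, and the median was -1.22. It called 0 to 6 with 1 library left out, 0 without gingiva Co 1 or Li 2, 2 without bone Co 1, gingiva Li 1 or gingiva Tra 1, 5 without bone Tra 3 and 6 without gingiva Li 3 or Li 4. DESeq2 called 9, all below 0, limma-voom called Lyz2 alone, and 7 were called without the 3 bone libraries with high shares of few genes. For the LiTra contrast DESeq2 called 18, all below 0, and limma-voom 18, of which Gpnmb at 1.09 was above 0 (adjusted p = 0.0318). The edgeR count was 5 to 16 with 1 library left out, with 5 without gingiva Co 1 or LiTra 3, 6 without bone LiTra 1 or LiTra 3, 7 without bone Co 4 or LiTra 2 and 8 without bone Co 2 or gingiva LiTra 4. Fcgr3, Tyrobp, Lyz2 and Spic were called in all 32 such fits, Csf1r and Spi1 were lost in 25 (adjusted p up to 0.128 and 0.11) and Cx3cr1 in 18 (up to 0.0979), and with library totals the count was 0 of 34.

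**Figure D4:**
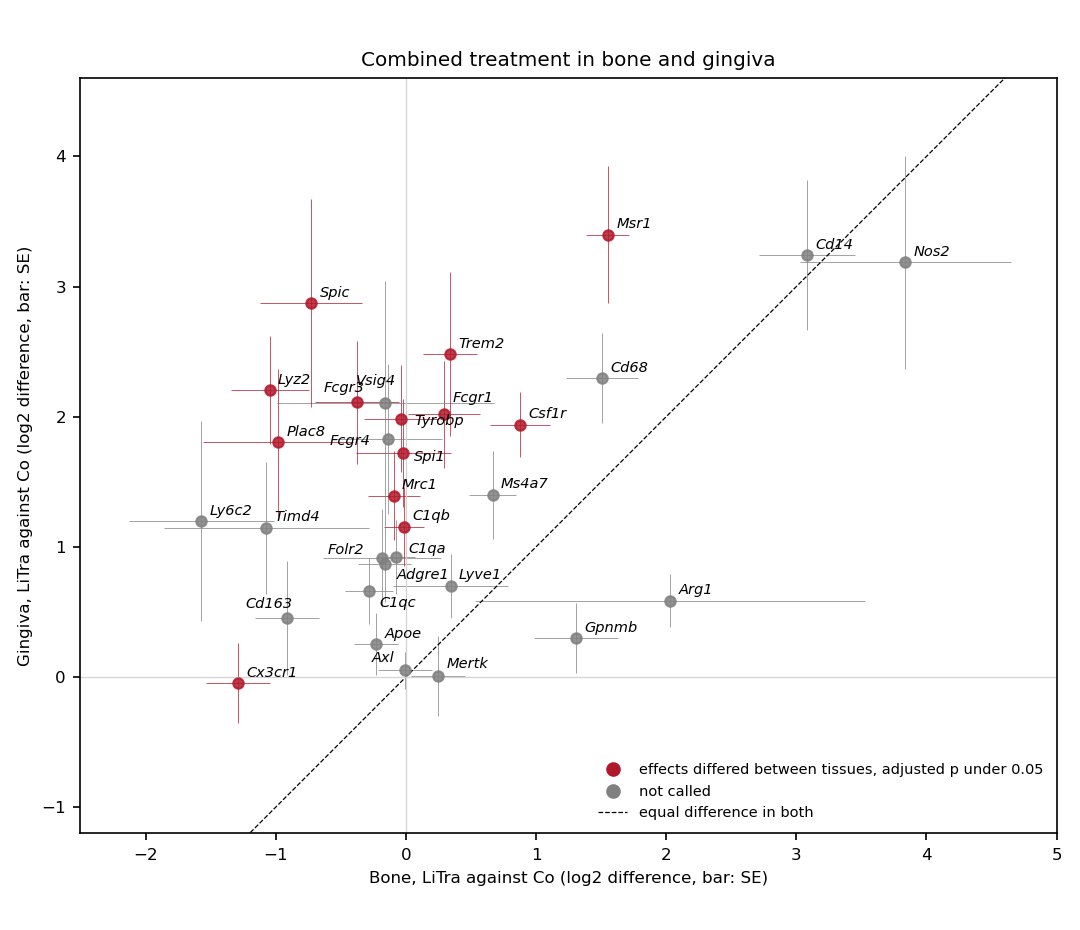
Log2 difference of LiTra from Co in bone (x axis) and gingiva (y axis) with SE bars, 4 libraries per group; red marks the 13 genes whose effect differed between tissues (edgeR adjusted p under 0.05) and the dashed line equal effects. Marco and Cd5l are left out, and all 13 red points lie above the line.

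Other genes of the same pathways were counted from lists chosen with earlier results of these data known. Beside the counts for LiTra against Co, 8.29% of all genes were called higher and 8.64% lower in bone, and 11.4% and 11.5% in gingiva, so that 1 or 2 calls in a list of 12 are near the share over all genes. In gingiva LiTra against Co, genes of activating receptor signalling were 8 of 12 higher and 0 lower (median 1.92), led by the lectin receptor gene Clec4n at 3.41 ± 0.55, the kinase genes Lyn at 1.91 ± 0.34 and Syk at 1.44 ± 0.28, and the adaptor gene Fcer1g at 1.93 ± 0.37. In bone they were 1 of 12 higher and 1 lower (median -0.81), with Clec4n up by 2.45 ± 0.37 and the phospholipase gene Plcg2 at -1.05 ± 0.34. Inhibitory myeloid receptors were 8 of 9 higher and 0 lower (median 2.41) in gingiva and 0 of 9 higher and 0 lower (median -0.43) in bone by edgeR. In bone 1 had an unadjusted p under 0.05, as had 6324 of 21205 genes. Clec4a2 at 2.72 ± 0.32, Fcgr2b at 2.41 ± 0.42, Pirb at 2.53 ± 0.50 and Cd200r1 at 2.1 ± 0.42 had the smallest p in gingiva.

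Several monocyte recruitment genes rose in each tissue, and a smaller number fell. For LiTra against Co they were 7 of 16 higher and 3 lower (median 0.68) in bone and 9 of 16 higher and 1 lower (median 1.95) in gingiva, and for Li 3 of 16 higher and 0 lower (median 0.36) and 7 of 16 higher and 0 lower (median 1.77). Ccl2, the main monocyte attractant, was at 1.03, 1.203, 1.15 and 0.388 CPM in bone Co and 10.8, 27.2, 4.2 and 10.9 in bone LiTra, a difference of 3.82 ± 0.57, and differed by 3.86 ± 0.73 in gingiva. Its receptor gene Ccr2 rose in gingiva by 1.89 ± 0.34. Ccl3 and Ccl4, which also attract monocytes, rose in bone, by 3.51 ± 0.65 and 3.62 ± 0.75. The genes of the list called lower are not named here. The summed level of the list was 820 to 1138 CPM in bone Co and 560 to 741 in bone LiTra. In gingiva it was 85.5 to 130 CPM in Co and 303 to 488 in LiTra. In the CSF1 axis list the counts were 0 of 11 higher and 2 lower (median -0.16) in bone, the fall being Irf8, needed for monocyte formation, at -1.91 ± 0.40 and Cebpa at -0.60 ± 0.15, and 2 of 12 higher and 3 lower (median 0.15) in gingiva, where Csf2rb rose by 2.16 ± 0.42 and Klf4 fell, at -1.61 ± 0.28. Gingival epithelium genes summed to 63777 to 78300 CPM in gingiva Co and 38640 to 47642 in LiTra. The part of epithelium in the fall of Klf4 was not tested.

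Inflammatory activation genes were 7 of 15 higher and 1 lower (median 1.96) in bone LiTra and 9 of 15 higher and 0 lower (median 1.47) in gingiva LiTra, with Saa3 (8.48 ± 0.65 and 9.22 ± 1.3), Ptgs2 (5.58 ± 0.73 and 3.72 ± 0.76), Socs3 (1.96 ± 0.26 and 2.32 ± 0.41) and Il6 (5.99 ± 0.92 and 7.62 ± 1.61) leading in both. Many other cell types make these. Alternative activation genes were 2 of 12 higher and 2 lower (median -0.26) and 2 of 12 higher and 1 lower (median 0.77). The cytokine receptor gene Il4ra rose by 1.06 ± 0.26 and 2.35 ± 0.32, and the genes called lower are not named here. The list summed to 1182 to 1535.5 CPM in bone Co and 350 to 657 in bone LiTra. In gingiva it summed to 157 to 196 CPM in Co and 291 to 417 in LiTra. In the lipid-associated list the counts were 5 of 14 higher and 1 lower (median 0.32) and 5 of 14 higher and 0 lower (median 0.22), with Ctsl at 0.74 ± 0.11 in bone and Ctsb at 1.17 ± 0.14 in gingiva. Genes of dying-cell uptake were 2 of 12 higher and 2 lower (median 0.25) and 4 of 12 higher and 3 lower (median 0.11), with Itgav up in both, by 1.33 ± 0.19 and 0.94 ± 0.13, and Stab2 at -2.28 ± 0.32 and Cd36 at -1.57 ± 0.22 in bone. Iron-recycling macrophage genes were 0 of 9 higher and 4 lower (median -0.48) in bone, among them the iron exporter gene Slc40a1 at -1.35 ± 0.33 and Siglec1 at -1.45 ± 0.38, and 4 of 9 higher and 0 lower (median 0.65) in gingiva.

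Markers of some other cells changed in the same comparisons, and those of others did not. Osteoclast markers were 5 of 7 higher and 0 lower (median 1.54) in bone Li and 6 of 7 higher and 0 lower (median 1.79) in bone LiTra, beside Csf1r, Cd68 and Gpnmb, and their summed level was 1703 to 3261 CPM in Co and 1332 to 3565 in Tra, against 4638 to 6420 in Li and 4822 to 7944 in LiTra. In gingiva they were 7 of 7 higher and 0 lower (median 3.5) in Li and 7 of 7 higher and 0 lower (median 4.12) in LiTra, with sums of 133 to 164 CPM in Co, 459 to 851 in Li and 666 to 1136 in LiTra. Neutrophil markers were 3 of 10 higher and 0 lower (median 1.21) in gingiva LiTra, summing to 165 to 900.3 CPM in Co, 959 to 7462 in Li and 2223 to 8942 in LiTra, and 0 of 10 higher and 3 lower (median -1.43) in bone LiTra beside Lyz2, Ly6c2 and Plac8, where sums were 12059 to 15302 CPM in Co and 2852 to 7265 in LiTra. Elane was at 0 counts in all gingival LiTra libraries, while S100a8 rose there by 3.82 ± 0.79.

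General leukocyte genes were 8 of 10 higher and 0 lower (median 1.56) in gingiva LiTra and 0 of 10 higher and 1 lower (median -0.63) in bone LiTra. Red blood cell genes were 0 of 6 higher and 6 lower (median -3.01) in bone LiTra, beside Cd5l, Cd163 and the iron-recycling genes, with sums of 17942 to 35523 CPM in Co and 1355 to 4654 in LiTra. Dendritic cell markers were 0 of 8 higher and 0 lower (median 0.40) in gingiva LiTra and 0 of 8 higher and 0 lower (median -0.20) in bone LiTra by edgeR. In gingiva 1 and in bone 2 had an unadjusted p under 0.05, as had 7123 of 20143 and 6324 of 21205 genes. Lymphatic vessel markers were 1 of 5 higher and 0 lower (median 0.17) in gingiva Li beside Lyve1, the call being Pdpn at 1.63 ± 0.27. Gingival epithelium genes were 1 of 5 higher and 3 lower (median -1.25) in gingiva LiTra. Bone tissue genes were 1 of 5 higher and 1 lower (median -0.30) in bone LiTra, and nasal gland genes 0 of 6 higher and 2 lower (median -0.91) in gingiva LiTra. The part of these markers in the results above was not tested.

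**Figure D5:**
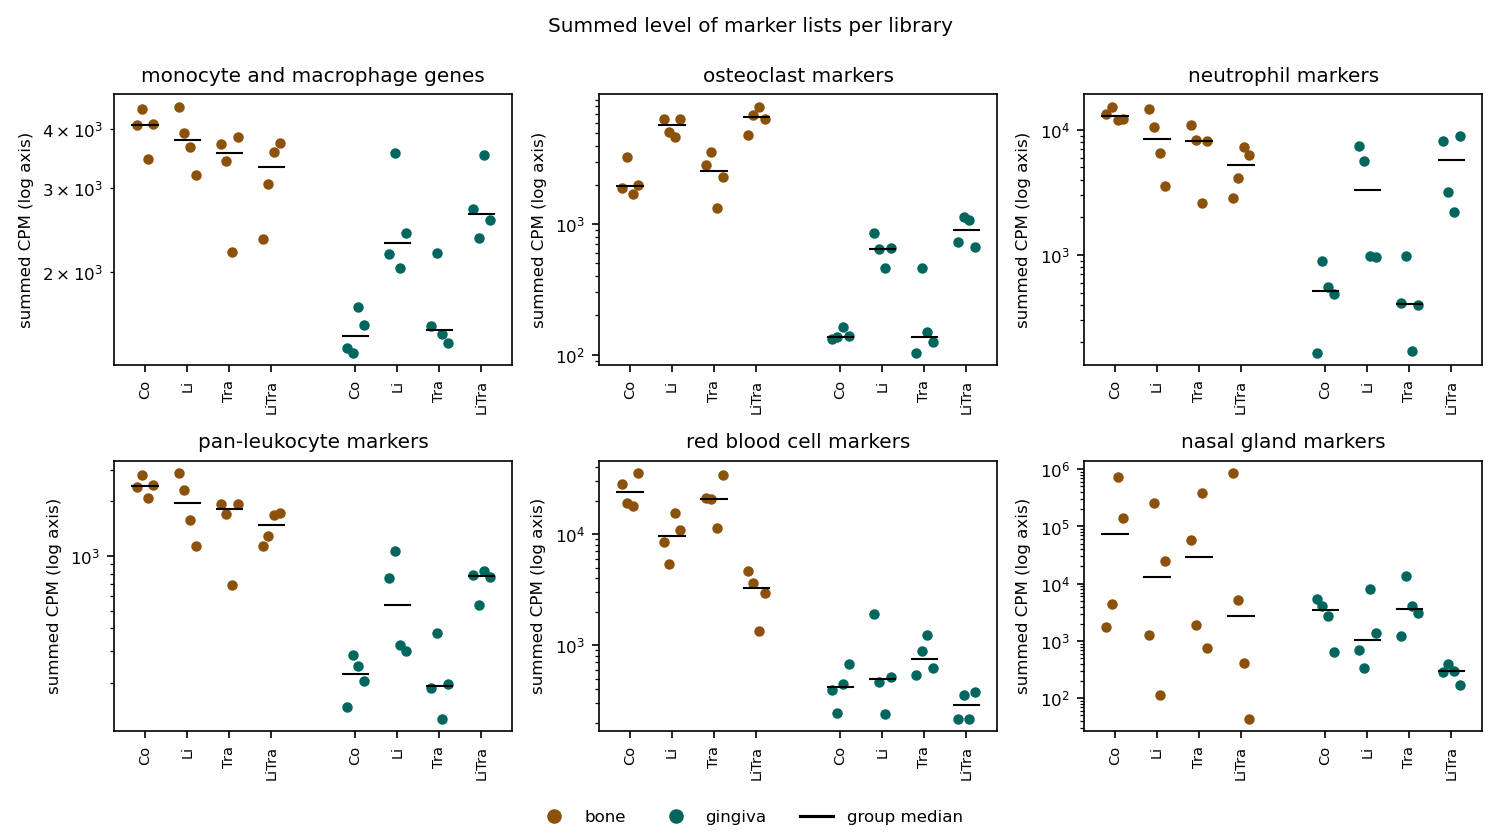
Summed CPM (log axis) of the 34 genes and of 5 marker lists in each library, by treatment, in bone (brown) and gingiva (green); black lines are group medians of 4 libraries. The 34 genes sum to 3459 to 4399 CPM in bone Co and 2343 to 3728 in bone LiTra, and to 1351 to 1683 in gingiva Co and 2354 to 3525 in gingiva LiTra, while osteoclast markers are high in Li and LiTra of both tissues.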

How the data were processed

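Poly(A) RNA of bone and gingiva was sequenced, per the labels' protocols. The authors deposited 1 table per tissue of estimated counts, whole numbers for each gene. Tools in the submitters' processing notes are HISAT2 2.2.1, Trimmomatic 0.39, StringTie 2.1.7, FastQC 0.11.9 and DESeq2 1.32.0, and GRCm39 is the build named there, with no order or settings, and strand use in counting is not given in the sources used here. Trauma columns carry the letters CR, read as composite resin. Gene symbols came from GENCODE M21, by identifier without version, and exon lengths from its merged exons, an older build. Labels do not say that libraries are separate animals, so each p-value covers only the spread seen among the libraries, which may be technical. No 2 libraries held identical values.

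Tests used the quasi-likelihood F test of edgeR 4.0.16 in R 4.3.3 (filterByExpr with minimum count 10 and minimum total 15, TMM, two-sided, Benjamini-Hochberg over all genes tested, called at 0.05), with 1 fit of 16 libraries per tissue and 6 comparisons each, and 1 fit of all 32 for differences between tissues. Errors of log2 differences are standard errors, the size of the difference divided by the square root of F. Bounds for groups at 0 counts use a floor of 3 counts over the group and cover counting error only. The fits were tested on simulated data. Alternatives used DESeq2 1.42.0, limma-voom (limma 3.58.1), other scalings, filters and thresholds, a replicate block and leaving out each library. Values in every library are given for 11 genes (Csf1r, Adgre1, Cd68, C1qa, Mrc1, Ly6c2, Cx3cr1, Trem2, Tyrobp, Arg1 and Nos2) and for called members with the 8 largest log2 differences of a comparison. Spi1, Lyz2, Plac8, Fcgr3 and Spic are shown in both tissues, chosen after their values were seen. Of each of 18 companion lists the text gives counts and up to 4 genes with the smallest p. The members and lists were chosen with earlier results of these data known.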

Additional observations from a re-analysis of the deposited data

Results flagged for a closer look

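Of 242 sets of 4 libraries (1 gene in 1 group, mean at least 1 CPM), 25 (10.3%) had 1 library far from the other 3 by Dixon's test. The nominal rate of the test, about 1 of 20, is for independent sets of normally spread values. These sets share libraries and hold CPM without logs, so the 10.3% cannot be read against that rate. In gingiva Li the high library was Li 2 for C1qa (95.5 CPM), C1qb (95.2), C1qc (63.0), Mrc1 (133), Fcgr1 (13.8) and Folr2 (7.05), and Li 1 for Ly6c2 (35.7). In gingiva Tra it was Tra 2 for Cd68 (27.4 CPM), C1qa (48.8), C1qb (53.3), C1qc (42.4), Cd14 (24.1), Lyz2 (396) and Ms4a7 (11.8). In bone the high libraries were Co 1 (62.9 CPM) and Li 3 (255) for Arg1, Tra 4 for C1qc (76.2), LiTra 4 for C1qb (84.7), Fcgr4 (9.44) and Lyve1 (10.04), and LiTra 3 for Mertk (69.8). The low libraries were Co 3 for Fcgr4 (5.48 CPM), and Tra 3 for Msr1 (7.02), Fcgr4 (2.89) and Spi1 (21.2).

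The effect of a treatment differed between bone and gingiva, by a test of the difference in edgeR over all 32 libraries, for 14 values, each the log2 change in bone minus that in gingiva. For Li against Co it was -2.35 for Lyz2. For LiTra against Co it was -1.05 for Csf1r, -1.16 for C1qb, -1.47 for Mrc1, -1.84 for Msr1, -1.71 for Fcgr1, -2.47 for Fcgr3, -2.13 for Trem2, -2.01 for Tyrobp, -1.73 for Spi1, -2.77 for Plac8, -1.23 for Cx3cr1, -3.24 for Lyz2 and -3.59 for Spic.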

How the results depend on the processing

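Counts of called members are given for each comparison under the settings that moved them by over 1.5 times. At an adjusted p under 0.01 they were 1 and 5 for bone Li and LiTra against Co, 2 for bone LiTra against Tra, 2 and 11 for gingiva Li and LiTra against Co, 7 for gingiva LiTra against Tra, and 0 and 3 for the difference between tissues in the Li and LiTra effects. A fold of at least 2 as well left 3 for bone Li against Co. With library totals in place of TMM bone counts were 0 for Li against Co, 1 for LiTra against Co and 1 for LiTra against Tra, and the count was 0 for both tissue differences. That scaling moved the median of all genes to 0.13 in bone Li against Co and in gingiva LiTra against Tra, and the members' median in bone LiTra against Co from -0.06 to 0.02. DESeq2 called 2 for bone LiTra against Li, 8 for bone LiTra against Tra and 9 for the Li tissue difference. Limma-voom called 10 for gingiva Li against Co and 1 for gingiva LiTra against Li. Fits of the compared groups alone called 2 for bone LiTra against Tra and 5 for gingiva Li against Co. For the Li tissue difference, a filter at CPM over 1 in 4 libraries gave 3 and leaving out bone Co 3, Tra 3 and LiTra 1 together, chosen after seeing the data, gave 7. No filter gave 8 for the LiTra tissue difference. The cause of these changes was not tested.

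Leaving out 1 library gave, in bone, 2 to 5 for Li against Co, 7 to 12 for LiTra against Co and 3 to 7 for LiTra against Tra, in gingiva 5 to 20, 16 to 22 and 11 to 19 for the same, and 0 to 6 and 5 to 16 for the Li and LiTra tissue differences. It stayed at 0 for Tra against Co, LiTra against Li and the interaction in both tissues, and at 28 to 31 for Co bone against gingiva. No result changed its direction past the threshold in any alternative. It is not known from the labels whether libraries of one number share a mouse, also between bone and gingiva, whose contrasts treat them as separate. Correlations of same-numbered libraries had medians of -0.09 across groups in bone (6 of 24 over 0.1), 0.02 in gingiva (7 of 24) and 0.07 between the tissues (6 of 16). For other numbers the medians were 0.04 (30 of 72 over 0.1), -0.02 (22 of 72) and -0.01 (10 of 48). These values cannot decide whether a mouse was shared. The main fits did not pair libraries by number. With the replicate block 3 members were called for the Li tissue difference, against 1, and no other count moved by over 1.5 times. Genes under about 1 CPM (Marco, Vsig4, Timd4, gingival Spic and Cd5l, and Nos2 in Co and Tra) are limited by depth. Nos2 averaged 0.442 and 0.467 CPM in bone Co and Tra, and 0.562 and 0.484 in gingiva Co and Tra, so its large log2 differences start from low levels.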
